A study of Mus musculus with 3 samples.

Results

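The olfactory flank beyond the locus control region is the stretch of mouse chromosome 7 that lies 150 kb to 1 Mb from the beta-globin (Hbb) viewpoint on the side of higher coordinates. Its members are the DpnII restriction fragments with a midpoint above position 111126215 and up to 111976215 (mm9), with distances taken from a viewpoint centre at 110976215. There are 1398 such fragments among the 48123 listed for the chromosome, and they were chosen by position alone. They cover 644 kb, or 75.8% of the stretch, and range from 16 to 3006 bp in length with a median of 332.5 bp. The fragments next to the inner border held 15 reads outside it and 12 reads inside it, and those next to the outer border held 0 reads inside it and 1 read outside it.

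The contacts were measured by next-generation Capture-C in 3 samples of 1 group. The samples were erythroid cells grown ex vivo from E12.5 fetal livers of mixed strain, homozygous for a combined deletion of the beta-globin enhancers HS2 and HS3. After 6 days of expansion, cells of individual livers were enriched for CD117 and differentiated for 24 h. The labels place them at the late erythroid stage, and fixation was in 2% formaldehyde for 10 min. All samples carry the deletion, no wild-type profile was analysed here, and every comparison is between positions of the deletion profile. The 3 count columns are unnumbered, and their names below give only their place in the table. The labels do not tie each sample to its own liver. P-values set differences only against how far these columns vary, which can include technical variation.

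Capture-C reports how often a viewpoint is ligated to other fragments of crosslinked chromatin, as an average over many cells. The locus control region (LCR) is a cluster of enhancers that drives transcription of the Hbb genes in erythroid cells, and contacts between an enhancer and its gene occur mostly within a self-interacting domain. The globin genes of the mouse are embedded in a large array of olfactory receptor genes, which encode odorant receptors of olfactory neurons and are silent in most other cells. In the gene order of GRCm38, which was used for names only, the first 40 protein-coding genes beyond Hbb-y hold 25 olfactory receptor genes (Olfr), 10 tripartite motif genes (Trim), 3 ubiquilin genes (Ubqln) and 2 others, Olfm5 and Gm38525. The array opens with Olfr66, Olfr64 and Olfr65, the ubiquilin genes follow Olfr646, and the Trim genes run from Trim6 to Trim30d, after which olfactory receptor genes resume with Olfr651. Trim genes encode RING-type ubiquitin ligases, among them the retroviral restriction factor Trim5, and ubiquilins carry ubiquitinated proteins to the proteasome. Positions of these genes in mm9 were not used here, so the name olfactory flank rests on this order, and no value below is assigned to a gene.

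The flank as a whole was contacted rarely compared with the 150 kb between it and the viewpoint, but its contacts were not spread evenly. It held 1696 of 49433 cis reads in the first column, 1862 of 49247 in the second and 1234 of 37382 in the third. These are shares of 3.43% (95% exact binomial interval 3.27 to 3.60), 3.78% (3.61 to 3.95) and 3.30% (3.12 to 3.49), or 3.50% ± 0.25 (SD, n = 3). The second column lay above the other two by more than counting error, and the intervals of the first and the third overlapped. The intervals cover counting error only, and they take each read as an independent molecule, which was not tested. The density was 5.33, 5.87 and 5.12 reads per listed kb per 100000 cis reads in the 3 columns, or 5.44 ± 0.39 (SD, n = 3). All densities below are in this unit.

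On the same side, the sequence between the viewpoint and 150 kb had a density of 165 ± 10.8 (SD, n = 3), so that the flank was 30.3-fold lower (log2 ratio -4.92 ± 0.19). With the counts of single fragments capped it was 9.44-fold lower (log2 ratio -3.24). From 1 to 5 Mb the density was 2.79 ± 0.036, and the flank was 1.95-fold higher (log2 ratio 0.96 ± 0.090). Per kb of all sequence, of which 42.8% was listed there and 75.8% in the flank, it was 3.45-fold higher (log2 ratio 1.78). On the opposite side of the viewpoint, the stretch at the same distances had densities of 5.76, 6.56 and 6.28, or 6.20 ± 0.41. The flank was lower in all 3 columns, by a log2 ratio of -0.19 ± 0.094, and the ranges of the sides overlapped between columns. Each of these 3 comparisons had p = 0.25 in a two-sided exact sign-flip permutation test over columns, which is the lowest value possible with 3 columns. The drop from the LCR side into the flank was already under way inside 150 kb. The 10 kb windows beginning at 110, 120, 130 and 140 kb had densities of 75.2 ± 5.88, 24.6 ± 4.22, 9.61 ± 3.79 and 15.0 ± 3.35, and the flank's own windows beginning at 150 and 160 kb had 10.3 ± 1.14 and 6.95 ± 2.18.

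Within the flank, density did not fall steadily with distance. The bin at 200 to 250 kb had densities of 5.28, 6.16 and 3.82 in the 3 columns. From there the density was higher in every column at each of the next 4 steps of 50 kb, and at 400 to 450 kb it was 10.8, 10.7 and 11.5. The bin at 450 to 500 kb then held the lowest mean density of the 17 bins, with 1.66, 1.67 and 0.879. The bin after it, 500 to 550 kb, held the highest mean, with 10.6, 11.8 and 12.47. No column of the low bin overlapped any column of its neighbours. The bin before it was 8.66-fold higher on average (6.39 to 13.1 over the columns) and the bin after it 9.20-fold higher (6.38 to 14.2).

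Beyond 550 kb the density stayed low up to 1 Mb. It was 4.37 ± 0.55 at 550 to 600 kb, 1.71 ± 0.93 at 650 to 700 kb and 2.98 ± 0.35 at 950 kb to 1 Mb (SD, n = 3). The 400 kb on the viewpoint side of this change held 74.2% of the flank's reads in 55.0% of its listed sequence. Their density was 7.34 ± 0.51 against 3.12 ± 0.24 for the 450 kb beyond it, a ratio of 2.35 (2.32 to 2.42 over the columns). On the opposite side, the same split gave 7.32 ± 0.40 and 5.16 ± 0.49, a ratio of 1.42 (1.32 to 1.52). The position of this split was chosen after seeing the flank's values, so it is given without a test.

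**Figure D1:**
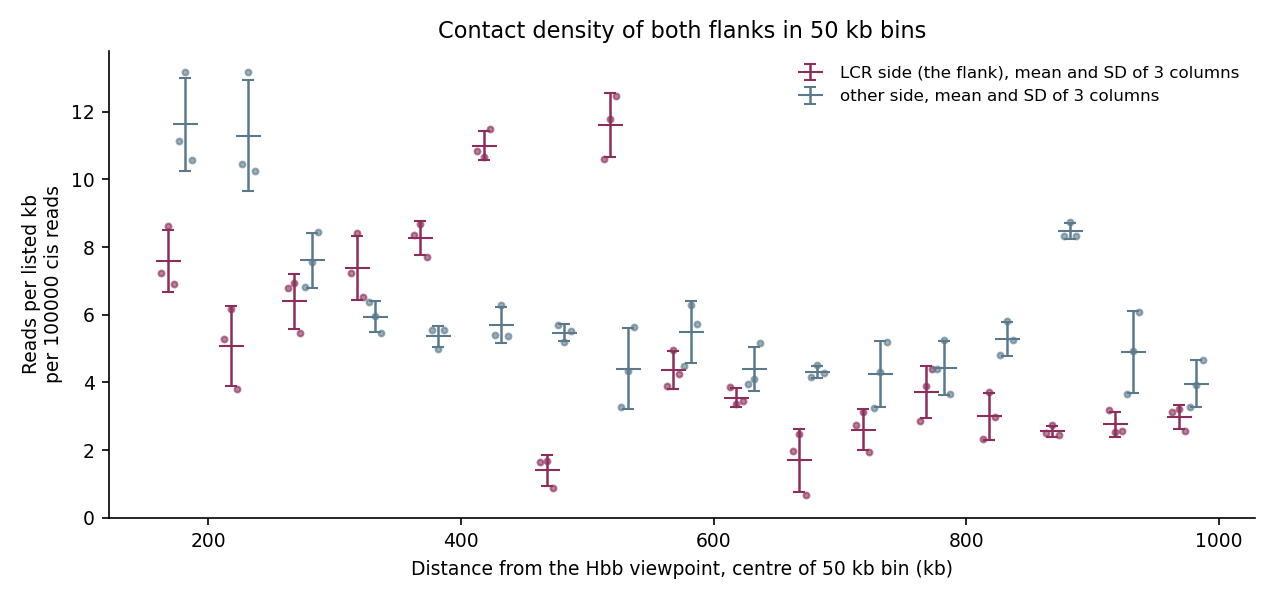
Reads per listed kb per 100000 cis reads in 50 kb bins from 150 kb to 1 Mb, in the flank and on the opposite side; dots are the 3 columns, bars the mean and SD. On the LCR side the bins at 400 to 450 and 500 to 550 kb reach 11.0 and 11.6 and the bin between them 1.40, while the other side averages 5.65 from 300 to 450 kb and 5.48 from 450 to 500 kb.

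Fitted over the 17 bins, log10 density fell with log10 distance at a slope of -0.71 ± 0.026 (SD, n = 3) in the flank and -0.47 ± 0.091 on the opposite side. The flank was steeper in all 3 columns, by -0.23 ± 0.068 (exact sign-flip permutation p = 0.25, two-sided). This order depended on the bins: with 10 bins of equal log distance the slopes were -0.51 and -0.54, and the difference turned to 0.031.

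The reads of the high bins were concentrated in 2 short stretches, and each was built from many fragments. The nearer maximum was the 10 kb window chr7:111386215-111396215, 410 to 420 kb from the viewpoint. It held 91, 102 and 76 raw reads in the 3 columns, which are densities of 17.9, 20.2 and 19.8. All of its 20 fragments had reads, 13 of them in every column, and the fragment with the most reads supplied 12.3% of the window. The farther maximum was chr7:111496215-111506215, at 520 to 530 kb, with 89, 101 and 90 reads and densities of 18.5, 21.1 and 24.7. It had 26 fragments, of which 96.2% had reads and 17 had reads in every column, and its highest fragment supplied 13.2%. Neither maximum rested on a single fragment or a single column.

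At finer scale the nearer maximum peaked in the 5 kb from 415 to 420 kb, with 71, 71 and 43 reads. The farther one was broader, and its 5 windows of 5 kb between 505 and 530 kb summed to 119, 48, 113, 154 and 126 reads over the columns. Both ended sharply. On the far side of the nearer maximum the summed reads went from 185 at 415 to 420 kb to 60 in the next 5 kb and 1 in the one after. On the far side of the farther maximum they went from 126 to 26. Of these windows, the one with 1 read had only 2.30 kb listed, while the others had 3.93 to 5.83 kb.

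The 5 fragments of the flank with the most reads all lay in these maxima. The fragment chr7:111501419-111502145, 526 kb from the viewpoint, held 15, 13 and 9 reads. In the same cluster chr7:111500513-111501337 held 7, 13 and 12. In the nearer maximum chr7:111392880-111393086 held 8, 12 and 13 reads in only 207 bp, chr7:111393228-111393850 held 11, 13 and 2, and chr7:111394012-111394587 held 14, 8 and 4. The last pair was uneven between columns, with the third column lowest. The highest fragment made up 0.772% of the flank's reads.

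**Figure D2:**
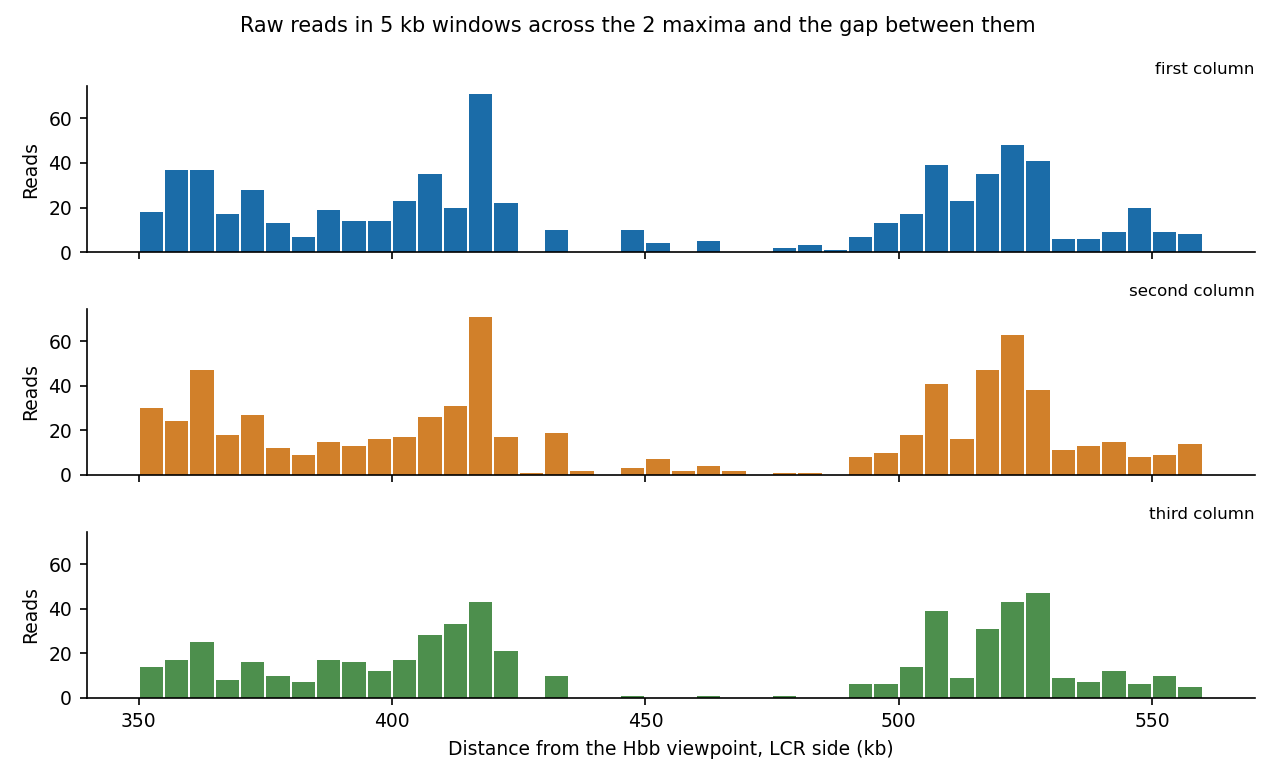
Raw reads in 5 kb windows between 350 and 560 kb of the viewpoint, with 1 panel per column. In each panel the windows at 415 to 420 kb (71, 71 and 43 reads) and at 520 to 525 kb (48, 63 and 43 reads) stand above the windows from 450 to 490 kb, none of which has more than 7 reads.

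The gap between the maxima was listed but almost without reads. From 450 to 500 kb the list held 86 fragments over 42.6 kb, or 85.2% of the sequence, with 35, 35 and 14 reads. Of these fragments 62 (72.1%) had no read in any column, against 137 of 1312 (10.4%) in the rest of the flank. The 62 fragments make up 32.8 kb of the 88.3 kb without reads in the flank. The reads that the gap did hold lay mostly at its far end, where the windows at 490 to 495 and 495 to 500 kb held 21 and 29. The window at 470 to 475 kb held 0 reads in 4.30 listed kb, made up of only 4 fragments with a median length of 1154.5 bp. Such a count allows shares of up to 0.00607%, 0.00609% and 0.00803% of the cis reads of the 3 columns. Median fragment length in the gap was 376 bp, against 293 bp and 321.5 bp in the bins on its sides.

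By listed bp, the 2 longest runs of fragments without reads in the flank both lay in this gap. The run chr7:111444856-111451607 covered 6 fragments and 5854 listed bp, where distance predicted 47.4 reads over the columns. The run chr7:111438712-111444085 covered 12 fragments and 5297 listed bp, with 42.9 reads predicted. The third, chr7:111674741-111695083, covered 9 fragments and 3981 listed bp in a span of 20343 bp that was mostly unlisted, with 31.7 reads predicted. These predictions are in proportion to listed bp, and long fragments of the flank held few reads per kb. Those of 801 to 1600 bp held 3.62 reads per listed kb over the columns, against 11.6 at 201 to 400 bp. The predictions can thus be too high for runs of long fragments. Whether fragments without reads can be mapped uniquely was not tested. The part of strain differences from the reference sequence was not tested either.

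Each 10 kb window was then set against the reads that its distance predicted, by a monotone curve through the densities of both sides. Over the 1298 windows from 10 kb to 10 Mb that could be tested, edgeR's quasi-likelihood test called 8.47% higher and 6.32% lower than predicted (Benjamini-Hochberg adjusted p under 0.05). In the flank 7 of 85 windows (8.24%) were called higher, a share near that of all windows. Lower calls made up 26 of 85 windows (30.6%) in the flank, against 4 of 85 in the opposite flank and 33 of 270 at 1 to 5 Mb on the LCR side. The median ratio of observed to predicted reads was 0.639 in the flank, 0.835 in the opposite flank, 0.691 at 1 to 5 Mb on the LCR side and 0.793 over all windows tested. All 7 higher and all 26 lower windows had the same direction in every column.

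The higher windows formed 3 groups. Those beginning at 350 and 360 kb held 1.61 ± 0.25 and 1.63 ± 0.32 times the predicted reads (SD, n = 3). This group was less stable than the others. Both of its windows lost their call without the second column and with the expectation per listed fragment. In each of these fits 5 higher windows of the flank remained. The one at 400 kb (chr7:111376215-111386215) held 1.90 ± 0.32 times with an adjusted p of 0.000297, and its neighbour at 410 kb, the nearer maximum, held 3.09 ± 0.19 times with an adjusted p of 1.4e-09. The windows at 500 kb (chr7:111476215-111486215) and 510 kb (chr7:111486215-111496215) held 2.14 ± 0.26 and 1.98 ± 0.18 times, with adjusted p of 1.2e-05 and 4.6e-05. The window at 520 kb, the farther maximum, held 3.60 ± 0.53 times with an adjusted p of 2.9e-10. None of the 15 windows from 150 to 300 kb and none of the 45 beyond 550 kb was called higher.

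The lowest called windows lay in the gap and in a second poor stretch near 675 kb. By range, 18 of the 26 lower windows lay beyond 550 kb, 4 in the gap, 1 from 300 to 450 kb and 3 from 150 to 300 kb. In the gap, the window at 470 kb (chr7:111446215-111456215) held 2, 1 and 1 reads where 67.5 were predicted in all, a ratio of 0.059 ± 0.021 with an adjusted p of 0.00232. The window at 480 kb (chr7:111456215-111466215) held 4, 1 and 0 reads, a ratio of 0.076 ± 0.095, and that at 460 kb (chr7:111436215-111446215) held 5, 6 and 1, a ratio of 0.15 ± 0.089. Their adjusted p were 0.00560 and 0.00140. The window at 670 kb (chr7:111646215-111656215) held 0, 3 and 0 reads in 3.48 listed kb, a ratio of 0.099 ± 0.17 with an adjusted p of 0.0426. That call was lost in 7 of 12 alternatives, with an adjusted p of 0.229 without the first column, 0.190 without the second and 0.380 in DESeq2. Its neighbour at 680 kb (chr7:111656215-111666215) held 4, 1 and 2 reads in 6.02 listed kb, a ratio of 0.15 ± 0.086 with an adjusted p of 0.00912. The gap was thus low in densely listed sequence, while the stretch near 675 kb was also thinly listed, with 47.5% of its 50 kb bin on the list.

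The count of lower windows depended on the expectation and the columns more than the count of higher ones. The curve was nearly flat across the outer flank, with a predicted density of 5.95 at 450 kb and 5.85 at 1 Mb. From 550 kb to 1 Mb both sides averaged below it, with 3.12 ± 0.24 in the flank and 5.16 ± 0.49 on the other side. That range held 18 of the 26 lower windows of the flank. With a curve from the LCR side alone, 7 windows of the flank were higher, all 7 of them the same windows, and 9 were lower, 8 of them the same; over all windows that curve gave 9.72% higher and 2.45% lower. DESeq2 called 6 higher (7.06%) and 3 lower (3.53%), all among those above, against 5.47% and 1.39% over all windows. Without the third column edgeR called no window of the flank and 0 of all 1298, with 8 higher and 17 lower at an unadjusted p under 0.05. Without the first column 7 were higher and 14 lower, against 8.55% and 3.08% over all windows. Without the second 5 and 14 were called, against 6.63% and 3.47%. Each fit without a column had 1 residual degree of freedom per window, and the cause of the difference between these fits was not tested.

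**Figure D3:**
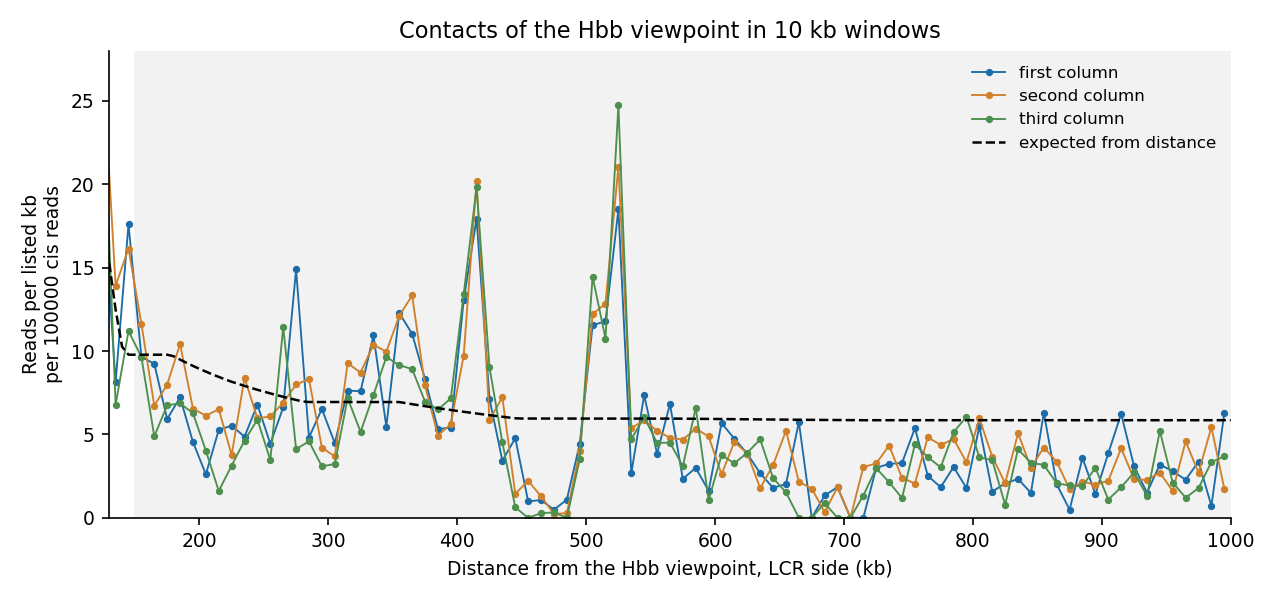
Reads per listed kb per 100000 cis reads in 10 kb windows from 130 kb to 1 Mb on the LCR side; each line is a column, the dashed line is the density predicted from distance and the shaded range is the flank. All columns rise above the dashed line at 410 to 420 kb (17.9 to 20.2) and at 520 to 530 kb (18.5 to 24.7), fall near 0 at 470 to 490 kb and stay mostly below it beyond 550 kb.

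Setting each 25 kb bin of the flank against the bin at the same distance on the opposite side separated the flank into stretches of opposite direction. In the edgeR quasi-likelihood test, with the column as a block, 9.8% of all 255 bin pairs from 25 kb to 10 Mb were higher on the LCR side and 19.6% lower. Of the 34 pairs of the flank, 4 were higher (11.8%), 12 were lower (35.3%) and 18 were not called. The 4 higher pairs were higher in all 3 columns. Of the 12 lower pairs, 11 were lower in all 3 columns, and the pair at 900 to 925 kb ranged from 0.188-fold to 1.04-fold.

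From 150 to 250 kb all 4 pairs were lower on the LCR side, by 1.37-fold to 2.77-fold in the fit. The pair at 200 to 225 kb had 3.80 ± 1.56 in the flank against 10.7 ± 2.29 opposite it (adjusted p = 1.1e-05). From 250 to 350 kb no pair was called. The pairs at 350 to 375 kb and 400 to 425 kb were then higher on the LCR side, with 10.9 ± 1.78 against 5.74 ± 0.30 (adjusted p = 8.2e-05) and 15.2 ± 1.12 against 5.63 ± 0.79 (adjusted p = 1.5e-07). From 425 kb on the direction was the opposite, with 3.23 ± 0.86 against 5.75 ± 1.02 at 425 to 450 kb (adjusted p = 0.0140). At 450 to 475 kb, in the gap, the LCR side had 0.779 ± 0.63 and the other side 5.77 ± 0.61, a 7.01-fold difference (adjusted p = 2.5e-06). It turned again at 500 to 525 kb, with 14.4 ± 1.01 against 4.66 ± 1.16 (3.13-fold, adjusted p = 5.0e-08), and at 525 to 550 kb, with 8.48 ± 1.26 against 3.67 ± 1.74 (2.39-fold, adjusted p = 0.000819).

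Beyond 550 kb, 5 of 18 pairs were lower on the LCR side and 0 were higher. The 2 with the largest differences were at 675 to 700 kb, with 0.931 ± 0.46 against 4.12 ± 0.43, and at 850 to 875 kb, with 2.87 ± 0.39 against 12.3 ± 0.58. In the second of these the LCR side was at the level of its neighbours and the other side had a local maximum. With the other side measured from the other unlisted stretch, the log2 ratio between the flanks was -0.17, and with that stretch as viewpoint 7 windows of the flank were higher and 24 lower than predicted. Distances are those of the reference sequence, in which the deleted elements are still present.

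Some counts moved with the replicates and the tool. Without the first column 2 pairs were higher and 2 lower, so that the lower share was 5.88% in the flank and 5.88% over all pairs. Without the second 4 and 7 were called, a lower share of 20.6% against 11.8% over all pairs. Scaling the sides to each other by TMM, which removes an overall difference between them, gave 7 higher and 6 lower, against 17.6% and 10.6% over all pairs. DESeq2 gave 4 higher and 7 lower, against 6.67% and 10.2%. The 4 higher pairs were among the higher ones with TMM and with DESeq2.

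**Figure D4:**
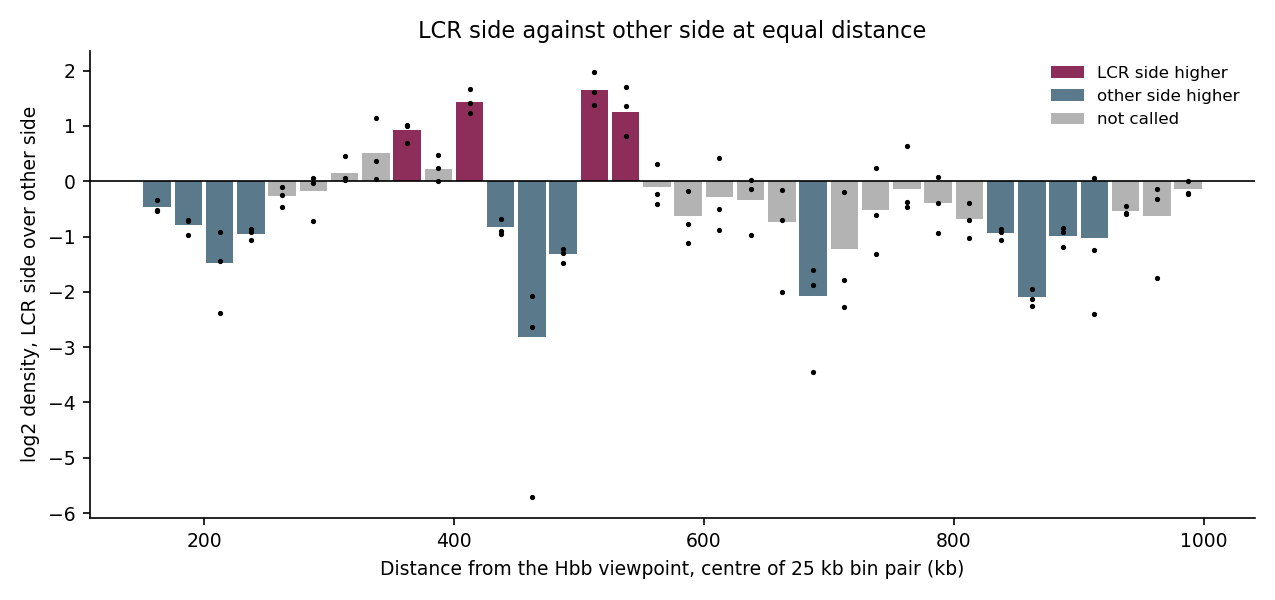
Log2 density of the LCR side over the other side in 25 kb bin pairs from 150 kb to 1 Mb; bars are the fitted value, coloured by the call, and dots the single columns. Called bars point down at 150 to 250 kb, up at 350 to 375 and 400 to 425 kb, down from 425 to 500 kb and up from 500 to 550 kb, and no bar beyond 550 kb is called upward.

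Single fragments of the flank were thinly covered. Of the 1398 fragments, 199 (14.2%) had no read, 543 (38.8%) had reads in 1 column, 418 (29.9%) in 2 and 238 (17.0%) in all 3. The median fragment had 2 reads over the columns and the highest had 37. The 140 fragments with the most reads held 34.8% of its reads. On the opposite side 96 of 1530 fragments (6.27%) had no read and 350 (22.9%) had reads in every column.

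Reads rose much less than in proportion to fragment length. Fragments of up to 100 bp had 1.96 reads each, those of 201 to 400 bp had 3.40 and those over 1600 bp had 4.41, so that reads per listed kb fell from 30.3 to 2.24 between the shortest and the longest class. On the opposite side the same classes had 2.17, 3.81 and 4.91 reads per fragment. In each of the 6 length classes the flank had fewer reads per fragment than the opposite side. Fragments without reads were more frequent in the flank in every class, for example 15.3% against 5.00% at 201 to 400 bp. Across the 1398 fragments Spearman's rho between length and reads was 0.19, as a description of fragments that share their libraries.

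**Figure D5:**
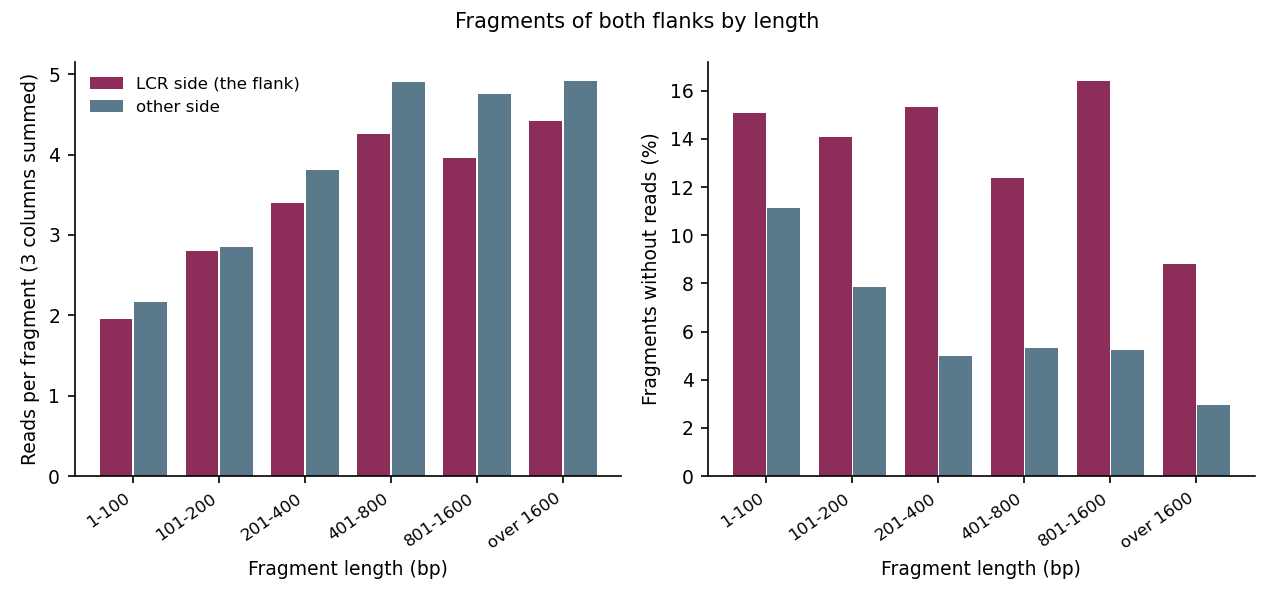
Reads per fragment, summed over the 3 columns (left), and the percentage of fragments without reads (right) by fragment length, for the flank and for the stretch at the same distances on the other side. Reads per fragment go from 1.96 to 4.41 in the flank and from 2.17 to 4.91 on the other side between the shortest and the longest class.

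Over the 85 windows of 10 kb, which share their libraries and are not independent, density correlated with the listed share of the window at a Spearman's rho of 0.55 and with median fragment length at -0.38. The part of both in the profile was not tested as such. Measured per fragment, which takes length out of the denominator, the bins at 400 to 450 and 500 to 550 kb held 6.81 and 6.77 reads over the columns and the gap held 0.977, so the maxima and the gap were present on that scale too. Between pairs of columns the window densities correlated at Spearman's rho of 0.70, 0.71 and 0.80. Chi-square per degree of freedom between their counts was 1.35 to 1.76, above the 1 that counting noise alone would give.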

How the data were processed

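The authors deposited raw read counts per DpnII fragment of chromosome 7, in 3 columns under a header of 1 cell. The submitters' processing notes list Trim Galore, Bowtie2 and the build mm9 with no version. Junction counting, fragment listing, duplicate removal and what was combined are not given in the sources used here. Columns held 49433, 49247 and 37382 cis reads. Unlisted fragments stay out of densities. Expected reads came from isotonic regression (scikit-learn 1.9.0) of summed density on distance, 10 bins per decade, scaled by each column's cis reads. Windows with at least 10 expected reads, and 25 kb bin pairs with at least 30 reads and 20% listed on both sides, were tested with edgeR 4.0.16 (quasi-likelihood, Benjamini-Hochberg over all tested). The window test took the expectation as known, so its F test was written out from edgeR's fit. DESeq2 1.42.0 was an alternative. Tested on simulated data with 3-fold changes, 80.5% of changed windows and 83.5% of changed bin pairs were recovered. The simulated windows varied around the expected curve itself with a fixed dispersion, so the recovery does not cover error in that curve. P-values set a departure from the curve, or a difference between sides, against the spread between columns. Named were the 5 highest and 5 lowest called windows, the 5 fragments with most reads, the 3 longest empty runs, the extreme 50 kb bins and the border fragments; other windows, bins and fragments with values were chosen after seeing them. Members and tests were chosen with earlier results of these data known. No gene list was measured, because no mm9 annotation was used.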

Additional observations from a re-analysis of the deposited data

How the results depend on the processing

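The other unlisted stretch as viewpoint was added after seeing the data and gave 7 higher and 24 lower windows (all windows 8.13% and 6.75%). Leaving out 1 column moved the share to 3.37 to 3.61%, the density to 5.23 to 5.60, the log2 ratios to the opposite flank, the near side and 1 to 5 Mb to -0.23 to -0.14, -5.03 to -4.86 and 0.91 to 1.00, the slope to -0.72 to -0.70, its difference from the other side to -0.27 to -0.20, higher and lower windows to 0 to 7 and 0 to 14, and higher and lower bin pairs to 2 to 5 and 2 to 10. Capping fragments raised the share to 4.81% and the density to 7.47, although it changed 0 fragments of the flank, since it lowers the total. The share was 3.93% of reads over 5 kb away. Per kb of sequence the density was 4.12 and the slope -1.01. On that scale 20 of the flank's 34 pairs were lower (58.8%) and 6 higher (17.6%), against 40.4% and 21.2% over all pairs. Log-distance bins gave a slope of -0.51 and turned its difference to 0.031. Lower windows were 17 without fragments under 100 bp (all windows 5.01%) and 9 per fragment (all 2.15%). With a power law 71 were lower and 2 higher (all 17.2% and 19.5%). The curve of the other side gave 48 lower (all 12.7%) and that of the LCR side 9 (all 2.45%). DESeq2 gave 3 lower (all 1.39%) and left out 1 window of 0 reads. Bins of 10 kb gave 7 higher and 21 lower of 83 (all pairs 9.93% and 18.0%). Bins of 50 kb gave 3 higher and 7 lower of 17 (all 11.8% and 21.5%). TMM gave 7 higher and 6 lower pairs, and DESeq2 7 lower. No replicate block gave 4 higher and 12 lower pairs (all 11.4% and 21.2%), 11 of these lower pairs shared. No paired analysis between groups was possible because there is 1 group. Apart from construction, as for capping, bin size and scaling, the causes of these moves were not tested. The 10 named windows kept their direction in the 12 alternatives that hold them, but each lost its call in some: that at 670 kb in 7, those at 480 and 680 kb in 3, those at 400, 500 and 510 kb in 2, and the other 4 without the third column only. The power law took the 400 kb window to a log2 ratio of 0.02.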
